A study of Mus musculus with 2 samples.

Results

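The Iroquois (Irx) homeobox genes, the homeobox gene Pitx1 and the COUP-TF nuclear receptor genes Nr2f1 and Nr2f2 were followed in 2 newborn mouse hearts. These 9 genes (Irx1 to Irx6, Pitx1, Nr2f1 and Nr2f2) were taken by gene symbol, matched through the Ensembl identifier, out of 43346 Ensembl genes in the gene table, and all 9 were found. Each sample was total RNA of a single whole heart of strain B6NCrl at postnatal day 0, from pup 2 (replicate 1) and pup 3 (replicate 2) of pregnancy 1. Both hearts carry the same donor identifier in the labels, sex was not collected, and there was 1 group with no treatment, allele or other tissue (n = 2 littermates). A whole heart pools atria, ventricles, valves and vessels, so a lower level of a gene may stand for fewer cells or for less RNA per cell, which cannot be told apart here.

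Iroquois proteins belong to the TALE class of homeodomain transcription factors, which bind DNA through a recognition helix, and in mammals their genes lie in a pair of clusters. In the mouse heart, Irx4 marks the ventricular myocardium, Irx3 acts in the ventricular conduction system, and Irx5 shapes repolarisation across the ventricular wall. Nr2f2 (COUP-TFII) is needed for atrial identity of mouse cardiomyocytes and for venous and lymphatic endothelium, while Nr2f1 (COUP-TFI) is an atrial factor in human cell models and its counterpart nr2f1a in zebrafish. Pitx1 is best known for hindlimb and pituitary development.

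All 9 are annotated as protein-coding genes, and their places are given on GRCm38 (mm10) from GENCODE M21. Chromosome 13 holds Irx1 (ENSMUSG00000060969.8) at 71957921 to 71963723 on the minus strand, Irx2 (ENSMUSG00000001504.10) at 72628820 to 72634198 on the plus strand and Irx4 (ENSMUSG00000021604.11) at 73260479 to 73269608 on the plus strand. It also holds Pitx1 (ENSMUSG00000021506.7) at 55825051 to 55836192 on the minus strand and Nr2f1 (ENSMUSG00000069171.9) at 78188973 to 78199757 on the minus strand. Chromosome 8 holds Irx3 (ENSMUSG00000031734.12) at 91798525 to 91802067 on the minus strand, Irx5 (ENSMUSG00000031737.10) at 92357625 to 92376286 on the plus strand and Irx6 (ENSMUSG00000031738.10) at 92674288 to 92680956 on the plus strand. Chromosome 7 holds Nr2f2 (ENSMUSG00000030551.9) at 70351944 to 70366735 on the minus strand.

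The stretch that encodes the recognition helix shows how alike the Iroquois genes are, which bears on how reads can be assigned to them. The 51 bases (17 codons) below were read from the GENCODE M21 transcript of each gene, with bases unlike Irx4 in capitals.
Irx4: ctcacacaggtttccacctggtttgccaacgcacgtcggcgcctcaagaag
Irx3: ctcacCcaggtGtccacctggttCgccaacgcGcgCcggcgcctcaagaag
Irx6: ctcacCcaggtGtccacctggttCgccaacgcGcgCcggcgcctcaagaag
Irx5: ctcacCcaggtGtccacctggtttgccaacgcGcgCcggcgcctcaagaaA
Irx2: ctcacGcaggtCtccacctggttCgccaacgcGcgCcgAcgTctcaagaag
Irx1: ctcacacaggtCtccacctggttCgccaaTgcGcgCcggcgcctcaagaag
Pitx1: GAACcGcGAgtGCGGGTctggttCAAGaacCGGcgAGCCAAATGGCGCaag
The 5 other Irx genes differed from Irx4 at 5 to 7 of the 51 bases, and 0 of 17 codons encoded another residue in any of them. Irx3 and Irx6 were identical over the whole stretch. Pitx1, a homeobox gene of another class, differed from Irx4 at 33 bases, and 11 of its codons encoded another residue.

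The longest runs of bases that were identical between members were also looked for, over all their transcripts. Irx3 and Irx6 shared 88 consecutive bases, Irx2 and Irx5 shared 65, and Nr2f1 and Nr2f2 shared 59. In the runs shown here, capitals mark in the Irx3 and Irx6 run the part that belongs to the helix stretch above, and the other runs carry no capitals.
Irx3 and Irx6: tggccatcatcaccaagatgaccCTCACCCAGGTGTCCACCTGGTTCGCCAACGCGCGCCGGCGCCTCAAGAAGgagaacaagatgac
Irx2 and Irx5: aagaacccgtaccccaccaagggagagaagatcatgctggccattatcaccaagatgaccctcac
Nr2f1 and Nr2f2: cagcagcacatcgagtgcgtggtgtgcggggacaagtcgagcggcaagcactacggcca
A read matches both genes throughout only if it is no longer than such a run. The deposited effective length was 99 bases below length, and each of these runs is shorter than that. Over whole genes, the share of 31-base words that also occurred in another gene on the same strand ran from 0.154% for Irx1 to 3.05% for Pitx1 and 3.29% for Irx3. On the opposite strand, which matters if counting did not use the strand, it was 7.75% for Nr2f2, 5.14% for Pitx1, 3.47% for Irx6, 3.44% for Irx3 and 1.51% for Nr2f1, and 0% for the others. In the deposited gene table the posterior SD of the count was 0 in both pups for every member but Irx3, where it was 0.26 and 0.33 reads. Irx6 thus had 0, although it shares the longest run with Irx3. The same SDs of 0.26 and 0.33 were listed for Irx3os, an antisense gene that overlaps Irx3. Of the 31-base words of Irx3, 94 occur in Irx3os on the opposite strand.

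Depth was 46151722 expected counts in replicate 1 and 44707283 in replicate 2. The heart label was checked against marker lists. All 8 cardiomyocyte markers were detected, led by Actc1, Myl2 and Tnnt2, and 0 of 10 skeletal muscle and limb markers were. Lung epithelial genes set the pups apart: the 16 genes of that list summed to 870 TPM in replicate 2 and 34.8 TPM in replicate 1. In TPM, 8 of them were higher and 6 lower in replicate 2. Nkx2-1, a lung-defining factor, had 0.04 TPM in each pup. Foxj1 had 0.78 TPM in replicate 2 and 0.03 TPM in replicate 1, and Epcam had 0.87 and 0.07 TPM. Of these 16 genes, 2 reached 1 TPM in both pups. Transcript abundance is given in TPM, which divides counts by transcript length and scales to a fixed total, so levels of different genes can be set side by side.

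At a threshold of 1 TPM in both pups, 7 of the 9 genes were detected, against 29.6% of all Ensembl genes and 54.5% of 21474 protein-coding genes. Irx4 was the most abundant. It reached 41.8 TPM in replicate 1 and 32.8 TPM in replicate 2 (37.3 ± 6.33, SD, n = 2). Of protein-coding genes, 88.5% lay below it in replicate 1 and 86.1% in replicate 2. Irx3 followed with 20.4 and 20.98 TPM (20.7 ± 0.410). Its pups were close to each other, and both stood under the lower Irx4 value. Irx5 had 5.64 and 4.93 TPM (5.29 ± 0.502), and Irx2 had 5.18 and 4.09 TPM (4.64 ± 0.771). The pups' values of these 2 genes overlapped, as did their credibility intervals. Irx1 had 1.01 and 1.07 TPM (1.04 ± 0.0424), just above the threshold. Its deposited credibility intervals, of a width the files leave unsaid, ran from 0.802 to 1.22 TPM and from 0.854 to 1.29 TPM, so they held the threshold in both pups.

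Irx6 and Pitx1 were the 2 genes under the threshold. Irx6 had 6 counts in replicate 1 (95% Poisson interval 2.20 to 13.1) and 8 counts in replicate 2 (3.45 to 15.8), or 0.05 and 0.06 TPM. Pitx1 had 0 counts in replicate 1 and 2 in replicate 2 (0.242 to 7.22), listed as 0 and 0.02 TPM. For Pitx1 the 3 counts that a count of 0 allows correspond to 0.0334 TPM in replicate 1 and 0.0338 TPM in replicate 2, and both pups lay under that floor. Such intervals and floors cover counting error only.

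The COUP-TF genes were both detected. Nr2f2 had 9.82 TPM in replicate 1 and 9.81 TPM in replicate 2 (9.82 ± 0.00707), and Nr2f1 had 1.62 and 1.56 TPM (1.59 ± 0.0424). The pups were close to each other for both genes. For comparison, the median protein-coding gene stood at 1.99 TPM and the median detected one at 12 TPM.

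**Figure D1:**
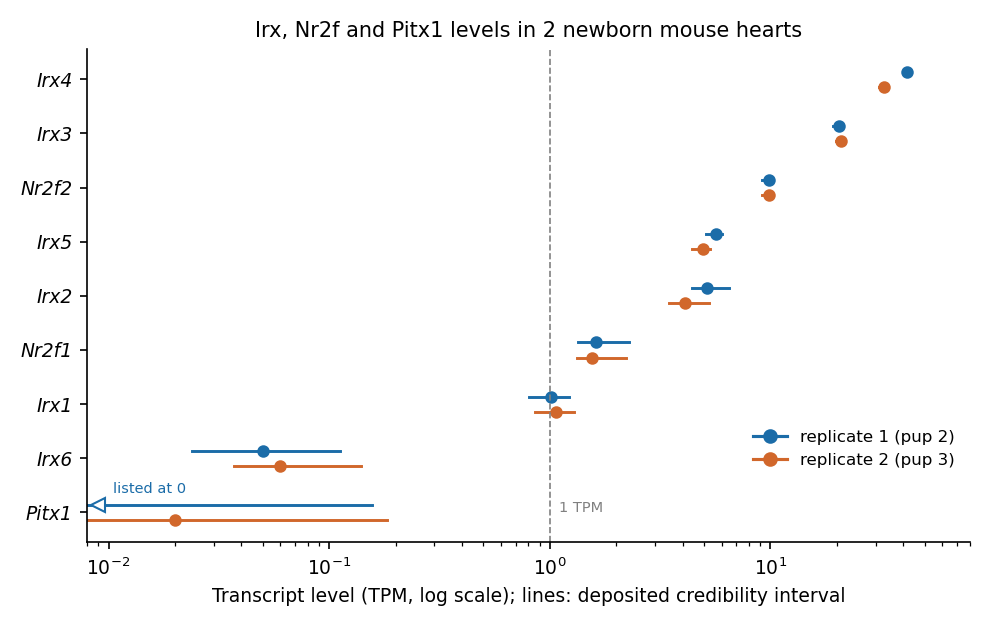
Level of each gene in TPM on a log axis, as points for replicate 1 (blue) and replicate 2 (orange) with lines for the deposited credibility interval. Irx4 and Irx3 lie highest, Irx1 straddles the dashed line at 1 TPM, and Irx6 and Pitx1 lie far to its left, with Pitx1 of replicate 1 listed at 0.

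Neighbours in the order Irx4, Irx3, Nr2f2, Irx5, Irx2, Nr2f1, Irx1, Irx6 and Pitx1 were compared by the pups' ranges and the credibility intervals. Of the 8 neighbouring steps, Irx5 to Irx2 was the one where the pups overlapped. At the last step, Irx6 to Pitx1, the pups' values were apart but the credibility intervals overlapped. Among the detected genes the ratio of neighbouring means ran from 1.14 for Irx5 over Irx2 to 2.92 for Irx2 over Nr2f1.

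The Irx genes lie in clusters on chromosomes 13 and 8 (genome build GRCm38), and each cluster had 1 dominant gene at an end. On chromosome 13 (71957921 to 73269608, 1312 kb from the start of the first gene to the end of the last) the order along the chromosome was Irx1, Irx2 and Irx4, and the levels were higher at each step. Irx4 exceeded Irx2 by 8.06-fold in replicate 1 and 8.02-fold in replicate 2, a ratio that was nearly equal in the pups although both genes were lower in replicate 2. Irx4 exceeded Irx1 by 41.4-fold and 30.7-fold. Start sites were 665 kb apart for Irx1 and Irx2 and 632 kb for Irx2 and Irx4. On chromosome 8 (91798525 to 92680956, 882 kb) the order was Irx3, Irx5 and Irx6, and the levels were lower at each step. Irx3 exceeded Irx5 by 3.62-fold and 4.26-fold, and the start sites were 556 kb apart for Irx3 and Irx5 and 317 kb for Irx5 and Irx6.

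The chromosome 13 genes summed to 48.0 TPM in replicate 1 and 38.0 TPM in replicate 2, and the chromosome 8 genes to 26.1 and 26.0 TPM. Both sums were lower in replicate 2, the chromosome 8 sum only slightly. Most of the chromosome 13 difference lay in Irx4, and Irx1 of that cluster was not lower. Irx4 alone held 53.9 ± 3.60% of all Irx TPM and Irx3 30.2 ± 3.72%, while Irx6 held 0.0807 ± 0.0186% (SD, n = 2).

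**Figure D2:**
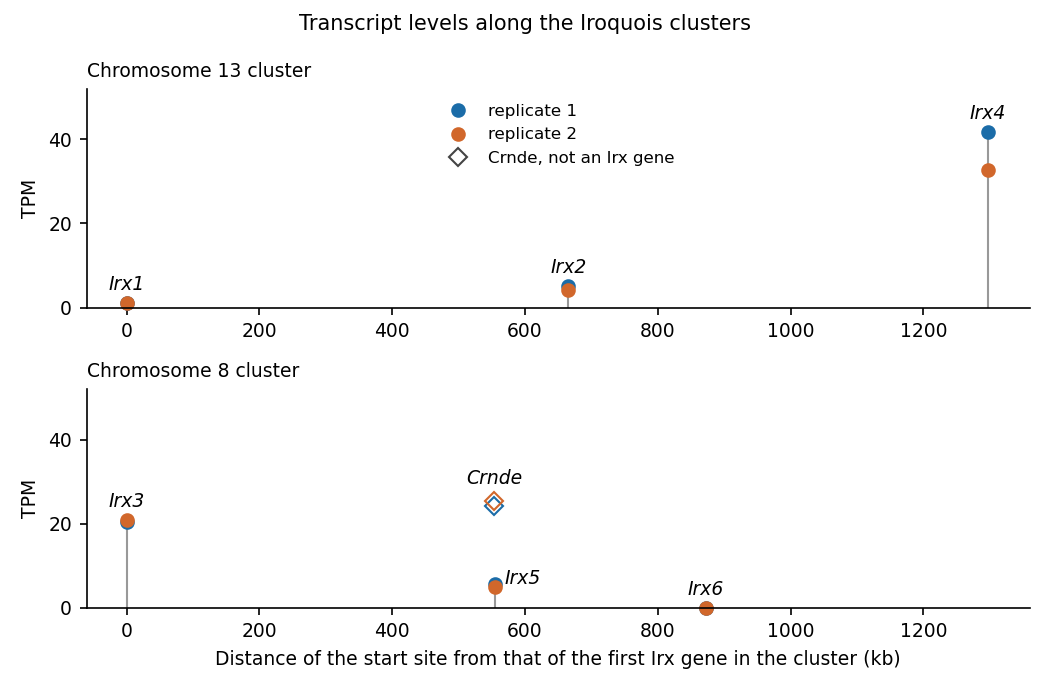
TPM in each replicate against the distance of the start site from that of the first Irx gene of the cluster, in kb. In the upper panel (chromosome 13) the level is highest for Irx4 at the far end, in the lower panel (chromosome 8) it is highest for Irx3 at the near end, and open diamonds show Crnde, a non-coding neighbour of Irx5.

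Across the clusters, Irx genes are described as paralogous pairs: Irx1 with Irx3, Irx2 with Irx5, and Irx4 with Irx6. The short helix stretch above does not give these pairs, since Irx3 differed there from Irx6 at 0 bases and from Irx1 at 3. A pair was called when the log2 ratio of TPM + 1 had 1 sign in both pups, its mean exceeded the difference between them, and the credibility intervals did not overlap in either pup. Of 12 pairs of members compared, 11 were called, 9 with the first gene higher and 2 with the second. Irx1 lay under its paralogue Irx3, with a log2 ratio of -3.41 in each pup. Irx4 lay above Irx6, with a mean of 5.17, a size that is set by the pseudocount of 1, since it was 7.90 with 0.1 and 9.16 with 0.01. It also rests on the 6 and 8 counts of Irx6, so for the 3 pairs that hold Irx6 the direction can be read and the size cannot. Irx2 and Irx5 formed the pair without a call, with a log2 ratio of -0.10 in replicate 1 and -0.22 in replicate 2. Their ratio had 1 sign and a mean of -0.16, larger than the difference of 0.12 between the pups, and the call failed on the overlapping credibility intervals. The Irx2 level includes 1.1 and 0.86 TPM of the short transcript Irx2-205, whose share is uncertain. Its main transcript Irx2-201 alone had 3.41 and 2.9 TPM, with upper credibility bounds of 3.75 and 3.22 TPM. The lower bounds of Irx5 were 5.09 and 4.41 TPM. On expected counts not divided by length, the ratio of Irx2 over Irx5 was -0.42 and this pair was called too. For 2 pups the smallest two-sided p of an exact sign-flip test is 0.5, so no p is given for any pair.

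Genes with known roles in different compartments were set against each other in the same way. Irx4, the ventricular regulator, exceeded Nr2f2, the atrial one, by 4.25-fold in replicate 1 and 3.35-fold in replicate 2 (mean log2 ratio of TPM + 1 of 1.81). Irx4 exceeded Irx3, the conduction system regulator, by 2.05-fold and 1.56-fold (mean log2 ratio 0.81), the smallest ratio among the called pairs. Nr2f2 exceeded Nr2f1 by 6.06-fold and 6.29-fold (2.06). Both pups gave the same direction in each of these 3 pairs.

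Within the TALE class, Irx4 was the most abundant of 18 genes, Meis1, a cofactor of HOX proteins, was at place 2 (27.2 and 27.9 TPM), and Irx3 was at place 3. In replicate 2 Irx4 still exceeded Meis1. Irx5 and Irx2 took places 11 and 12, Irx1 place 16 and Irx6 place 18, the last. The threshold was passed by 16 of the 18 (median 6.10 TPM), against 54.5% of protein-coding genes. Among 49 nuclear receptor genes, of which 27 were detected, near that share, Nr2f2 took place 12 and Nr2f1 place 27. The list was led by Nr1h2, a liver X receptor gene (38.1 and 38.8 TPM), Esrra, which acts in mitochondrial metabolism (37.7 and 35.6 TPM), and Nr3c1, the glucocorticoid receptor gene (33.2 and 35.6 TPM). The remaining gene of the COUP-TF subfamily, Nr2f6, stood above both members, at 29.2 and 30.6 TPM.

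**Figure D3:**
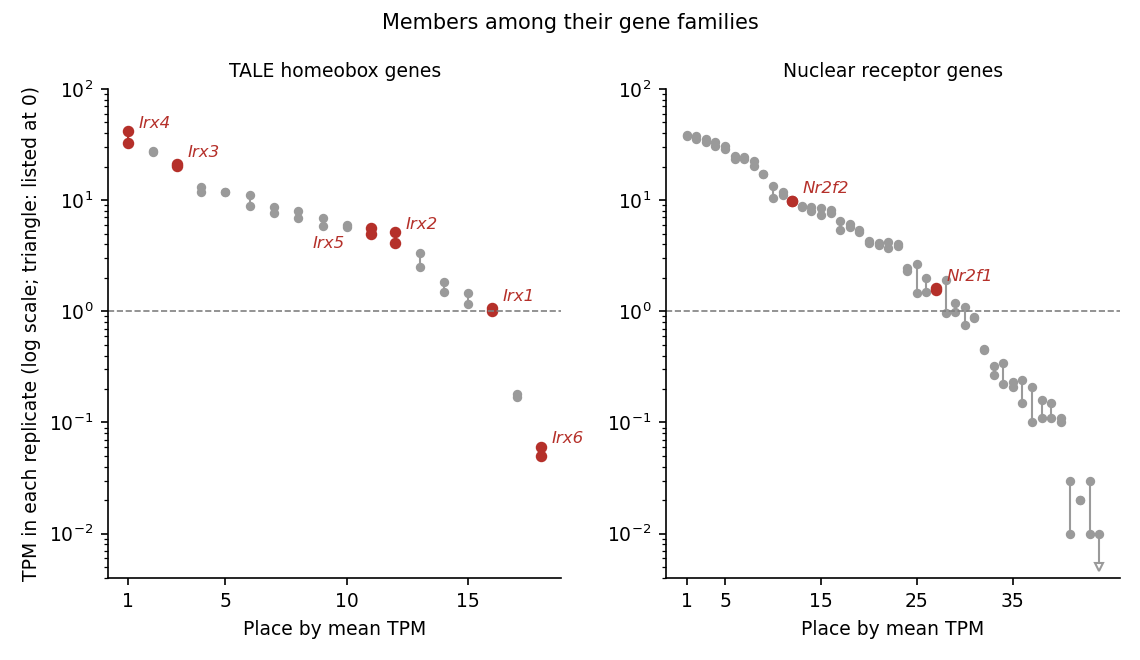
TPM of each TALE homeobox gene (left) and each nuclear receptor gene with a value above 0 (right, 44 of 49) in both replicates on a log axis, ordered by mean TPM, with the Irx and Nr2f genes in red. Irx genes take the first and the last place of the TALE class, Nr2f2 lies at place 12 of the nuclear receptors, and Nr2f1 at place 27, the last of those detected.

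The transcript tables showed which form of each gene was counted. For all 5 detected members with more than 1 transcript, the main one was the same in both pups, as it was for 92.3% of 8962 such genes. Irx4 was split between Irx4-202, with 65.9% of its TPM in replicate 1 and 65.0% in replicate 2, and Irx4-201 with 34.1% and 35.1%. The split was nearly equal in the pups. Of the bases of these transcripts, 2366 are shared, 18 occur only in Irx4-202 and 223 only in Irx4-201, and the starts are 18 bases apart. Irx3 was almost wholly Irx3-202 (95.1% and 98.2%), and Irx1 and Irx5 have 1 transcript each in the table.

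For Irx2 and the COUP-TF genes, shares of TPM and shares of counts differed, since short transcripts weigh more per read in TPM. Irx2-201 held 65.9% and 71.1% of the Irx2 TPM but a mean of 90.9% of its counts. The 559-base transcript Irx2-205 held 21.17% and 20.95% of TPM but 5.10% of counts, and it has 0 bases of its own outside Irx2-201. The posterior SD of its count was 40.8% of the posterior mean in replicate 1 and 49.1% in replicate 2, so its share is uncertain. Nr2f1-201 held 63.1% and 62.3% of TPM and a mean of 79.8% of counts. The smaller transcript Nr2f1-202 held 26.4% and 23.5% of TPM with a posterior SD of 68.4% and 74.0%.

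The Nr2f2 forms start far apart. Nr2f2-201 starts at position 70360593 of chromosome 7 and held 81.3% and 84.1% of TPM, and Nr2f2-202 starts 6142 bases upstream, at 70366735, and held 18.7% and 16.0%. In both pups the downstream start carried most of the gene. Of the bases of Nr2f2-202, 643 lie outside Nr2f2-201, and its posterior SD was 8.41% and 7.87% of the posterior mean. B130024G19Rik, a gene on the opposite strand that begins at 70364910, overlaps the upstream part of Nr2f2-202 and not Nr2f2-201. Whether reads of that gene enter the share of Nr2f2-202 was not tested.

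**Figure D4:**
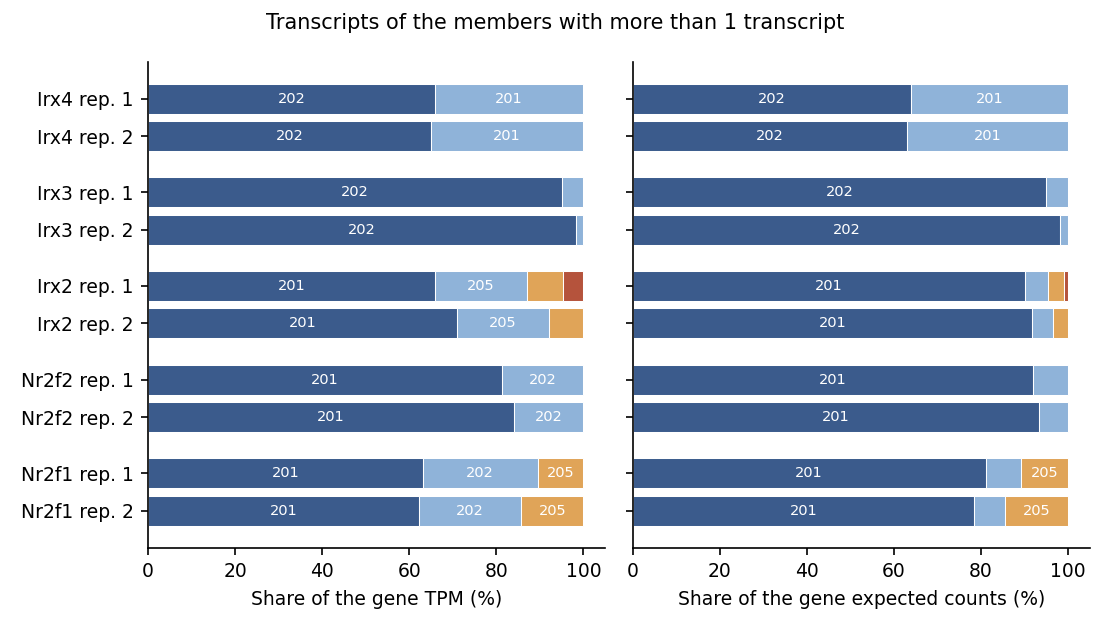
Share of each gene's TPM (left) and of its expected counts (right) held by each transcript, in percent, for the 5 detected members with several transcripts, 1 bar per replicate. The darkest segment is the main transcript, which is the same in both replicates, and it takes a larger part of counts than of TPM for Irx2, Nr2f2 and Nr2f1.

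Promoter sequence was matched by symbol from RefSeq (GRCm38.p6) for 5 of the 9 genes (Irx2, Irx3, Irx4, Nr2f1 and Nr2f2), as 250 bases before to 50 bases after a start. The Irx4 promoter and the promoter of the minor Nr2f2 transcript are shown because they stand far apart in CpG content. CG dinucleotides are in capitals, and each is written on the strand of its gene.
Irx4, chr13:73260247-73260546, plus strand: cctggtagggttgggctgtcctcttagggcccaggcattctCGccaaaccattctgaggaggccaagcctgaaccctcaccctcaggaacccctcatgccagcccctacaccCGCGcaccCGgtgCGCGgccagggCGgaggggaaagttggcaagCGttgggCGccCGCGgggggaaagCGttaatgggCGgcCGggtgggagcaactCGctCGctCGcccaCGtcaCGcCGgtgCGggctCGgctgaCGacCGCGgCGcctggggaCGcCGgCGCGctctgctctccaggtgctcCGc
Nr2f2, chr7:70366697-70366996, minus strand: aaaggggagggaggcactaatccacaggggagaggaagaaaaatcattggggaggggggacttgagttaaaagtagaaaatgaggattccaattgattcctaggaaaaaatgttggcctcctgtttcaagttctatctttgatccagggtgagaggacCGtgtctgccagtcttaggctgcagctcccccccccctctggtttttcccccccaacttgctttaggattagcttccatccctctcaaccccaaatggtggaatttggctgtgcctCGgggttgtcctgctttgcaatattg
The Irx4 sequence, whose start is that of Irx4-201, holds 31 CG dinucleotides (CpG observed over expected 0.828, GC content 70.7%). The Nr2f2 sequence, whose start lies 11 bases from that of Nr2f2-202, holds 2 (0.109, 49.7%). The median over 32851 RefSeq promoters was 0.384, and 81.4% of promoters lay below Irx4 and 14.6% below this Nr2f2 promoter. Motif letters were searched on both strands. The GATA factor letters GATAA, found in 25.4% of all promoters, occurred in none of the 6 promoters of these genes. The same held for the T-box letters AGGTGT (13.7%), the nuclear receptor letters AGGTCA (16.3%) and the TATA box letters TATAAA (13.6%). The NKX2-5 letters AAGTG (46.4%) occurred once each in the promoters of Irx2 and Irx3. A window of this length says nothing of sites outside it. The start used for Irx3 lies 261 bases from that of Irx3-201, its minor transcript. Those used for Nr2f1 lie 76 bases from that of Nr2f1-202 and 884 bases from that of Nr2f1-201. The windows of Irx2 and Irx4 hold the start of the main transcript, and those of Irx3, Nr2f1 and Nr2f2 do not. For these 3 genes the motif letters near the main start were not searched.

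Genes that overlap a member or start within 50 kb of one were followed as well, since the sources used here do not say whether counting used the strand, and reads of opposite strands may not be told apart. Of 20 such annotated neighbours, 9 had values used here and 4 were detected. Irx5 had 5.64 and 4.93 TPM, while Crnde, a non-coding gene that starts 1505 bases away on the other strand, had 24.2 and 25.5 TPM. The neighbour was thus the more abundant in both pups. For Nr2f1, the antisense gene A830082K12Rik, which overlaps it, had 1.69 and 1.82 TPM, close to the 1.62 and 1.56 TPM of Nr2f1 itself. For Nr2f2, the overlapping B130024G19Rik on the opposite strand had 1.53 and 1.63 TPM, and 613 of the 31-base words of Nr2f2 occur in it on the opposite strand. It overlaps Nr2f2-202 and not Nr2f2-201. In both pups the posterior SD of the count was 0 for Nr2f1, Nr2f2, A830082K12Rik and B130024G19Rik. What this means for the strand setting was not tested. The fourth was Gm3272, a processed pseudogene near Irx6, with 1.73 and 1.76 TPM. Irx3os, which overlaps Irx3 on the opposite strand, was not detected (0.78 and 0.54 TPM).

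The littermates were then compared, as the log2 ratio of counts scaled with TMM factors (which correct for library size and composition), replicate 2 minus replicate 1. Of 13463 genes whose counts averaged at least 50, 0.498% had an absolute ratio of 1 or more, and 0 of the 7 detected members did. At the lower limit of 1.2-fold, chosen after the values were seen, the background was 15.2%, and 1 of 7 members, Irx4, passed. By the ratio of TPM + 1, Irx2 passed too (log2 ratio -0.28, and -0.34 for Irx4), so 2 of 7 did, against 10.4% of all genes. Irx4 had 2920 counts in replicate 2 and 3754 in replicate 1, a log2 ratio of -0.33 (0.794-fold, 95% counting interval 0.757 to 0.834). In that direction 7.36% of all genes passed by scaled counts, so Irx4 is not read as a result about the members. Irx2, with 302 counts in replicate 2 and 365 in replicate 1, had a ratio of -0.24 (0.845-fold, 0.723 to 0.987), and Irx5, with 429 and 496, had -0.18 (0.883-fold, 0.774 to 1.01).

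The other detected members lay closer to equality. Irx3 had a log2 ratio of 0.06, Nr2f2 of 0.04, Nr2f1 of -0.01 and Irx1 of 0.09, and each counting interval held 0. The median absolute log2 ratio was 0.09 over the 7 members and 0.10 over all genes tested. These intervals leave out the spread between animals, which 2 littermates cannot give.

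**Figure D5:**
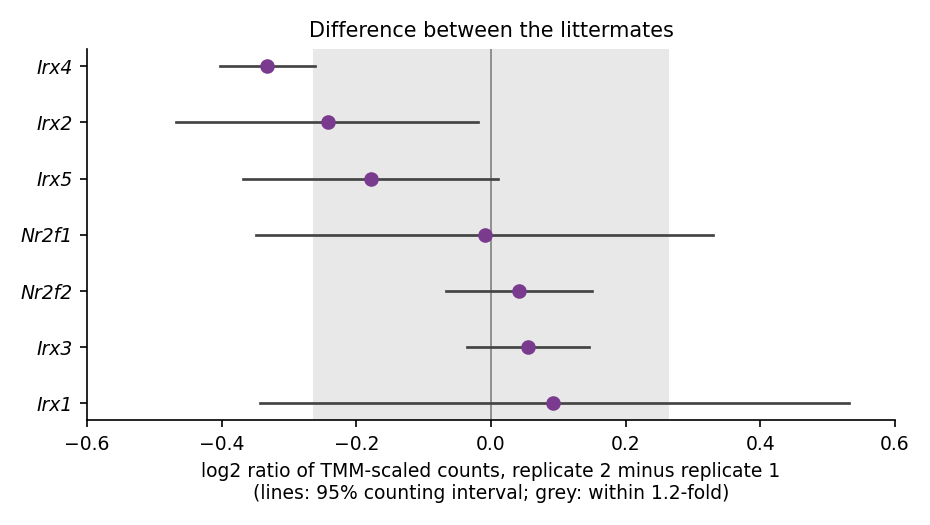
Log2 ratio of scaled counts, replicate 2 minus replicate 1, for the 7 detected members, with lines for the 95% counting interval and grey for ratios within 1.2-fold. Irx4 lies outside the grey band at -0.33, and the other 6 points lie inside it.

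Chamber genes were set beside the Irx4 difference. Among 8 ventricular genes, Myl2 and Myl3, the ventricular myosin light chain genes, were near equal between the pups: Myl2 had 11724 TPM in replicate 2 and 11818 TPM in replicate 1, and Myl3 had 6005 TPM in replicate 2 and 6131 TPM in replicate 1. Myh7, the fetal ventricular myosin heavy chain gene, was lower in replicate 2, with 382 TPM against 607 TPM in replicate 1. Of these 8 genes, 0 were over 1.2-fold higher and 2 over 1.2-fold lower in replicate 2, where 7.87% of all genes were higher and 7.36% lower by that much. The 10 atrial genes, all detected and led by Nppa, Myl7 and Myl4, summed to 14239 TPM in replicate 2, against 13290.2 TPM in replicate 1. Myl7, the atrial light chain gene, had 4831 TPM in replicate 2, against 3814 TPM in replicate 1. Of these 10, 2 were over 1.2-fold higher and 1 over 1.2-fold lower, beside the same 7.87% and 7.36% of all genes. The list was split, with 5 genes higher and 5 lower in TPM in replicate 2, among the lower ones its most abundant gene Nppa (7288 TPM, against 7696 TPM in replicate 1). The part of these genes, and of the lung epithelial genes, in the Irx4 difference was not tested.

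Genes described as targets or partners of Irx proteins gave 13 detected of 16 (median 17.8 TPM), against 54.5% of protein-coding genes. Gja1, the ventricular gap junction gene that Irx3 represses in mouse conduction tissue, led the list with 448 and 420 TPM. Nkx2-5, a cardiac homeobox gene, had 106 and 117 TPM, and Smyd1, a muscle histone methyltransferase gene, had 80.4 and 82.3 TPM. Between the pups, 0 of 15 tested list genes were over 1.2-fold higher and 4 were over 1.2-fold lower in replicate 2, beside 7.87% and 7.36% of all genes. With lists this short, and members chosen with earlier results known, nothing is read from that count. Among these were Kcnd2, Bmp10 and Vdr, named after their values were seen. Kcnd2, the potassium channel gene that Irx5 represses in the mouse ventricle, had 0.83 TPM in replicate 2, against 1.19 TPM in replicate 1. The list's median log2 ratio was -0.07, against -0.00203 over all genes tested.

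All 16 genes described as targets or partners of the COUP-TF proteins passed the detection threshold (median 17.0 TPM), against 54.5% of protein-coding genes. The most abundant were Myl2, Myl7 and Ncor1, a corepressor gene (62.3 and 58.4 TPM). This list was chosen with earlier results known and holds abundant heart genes, so nothing is read from its count. Since Nr2f2 also marks veins and lymphatics, markers of that endothelium were counted: 7 of 8 were detected, against 54.5% of protein-coding genes. Their summed levels were 104 and 98.8 TPM. The highest were Aplnr, an apelin receptor gene of developing veins (44.4 and 40.4 TPM), the venous Ephb4 (17.6 and 15.4 TPM) and Prox1 (13.1 and 13.4 TPM). Prox1 is on the list as a lymphatic marker, and whether its reads came from lymphatic cells was not tested. Nr2f2 itself stood at 9.82 and 9.81 TPM, and how it divides between cardiomyocytes and endothelium was not tested.

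By level in the 2 libraries alone, the protein-coding genes nearest to Irx4 were Hnrnpdl, Akirin1 and Fgl2, at distances of 0.0134, 0.0216 and 0.0283 in log2(TPM + 1). Those nearest to Nr2f2 were Clcn7, Snx27 and Med15, at 0.00598, 0.00852 and 0.0108. With 1 tissue and 2 libraries, such likeness describes a level and its difference between the pups.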

How the data were processed

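Total RNA from 2 single hearts was sequenced, with 10 ng per library, RNA above 200 bases and spike-ins added, per the labels. Quantification was deposited per library, for genes and for transcripts, on mm10 with GENCODE M4, per the deposited read-me. The deposited expected counts are estimated reads per feature. The deposited TPM and FPKM values are scaled by length and depth. In the deposited percent column a transcript is set against its gene. The deposited credibility bounds are a signal in TPM units, of unstated width. The sources used here do not name the aligner, the quantifier version or the strand setting. Effective length, per the file headers, was 99 bases below length.

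Of 43346 Ensembl genes, 42462 were matched by identifier to GENCODE M21 of the same build, which gave symbols, coordinates and transcript sequences. Library totals were 46151722 and 44707283 expected counts, the depth behind every value. Both hearts form 1 group, and the spread between them, an SD over 2 littermates, is the only replicate error. Their counts differed beyond sampling noise (chi-square per degree of freedom 13.8 over 18133 genes). Levels were compared as log2(TPM + 1). Differences between the pups used edgeR 4.0.16 TMM factors (R 4.3.3) with a prior count of 2, on counts rounded to whole numbers, and the step was tested on simulated data. Other steps used numpy 2.4.6, scipy 1.17.1 and pandas 2.3.3 under Python 3.11.15. Alternatives were DESeq2 1.42.0 size factors, unscaled libraries, FPKM, posterior means and other pseudocounts, thresholds and filters. No p-value was computed.

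The members and the gene lists were chosen with earlier results of these data known. Genes named were all members, at most the 3 most abundant of each other list, lung epithelial genes over 2-fold apart between the pups, annotated neighbours, and the 3 genes nearest in level to Irx4 and Nr2f2. Kcnd2, Bmp10, Vdr, Nr2f6 and Nkx2-1 were named after their values were seen. The result of 1 gene that enters the counts of the Irx target list is not reported here.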

Additional observations from a re-analysis of the deposited data

How the results depend on the processing

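The number of members detected stayed between 6 and 8 under posterior mean TPM, FPKM, a threshold of 0.5 TPM, and more than 3 counts. At 5 TPM it was 3 (Irx4, Irx3 and Nr2f2). Of 12 pairs, 11 to 12 were called under the other pseudocounts, posterior means, FPKM and counts not divided by length, and no pair changed direction, but the ratios over Irx6 grew with smaller pseudocounts. With either replicate left out the counts were 7 members and 11 pairs, which is no check, since a call needs both pups and cannot be lost with 1 of them. Irx2 against Irx5 gained a call on counts not divided by length (-0.42). No member differed by a log2 ratio of 1 between the pups under DESeq2 size factors, unscaled libraries, TPM ratios, a minimum count of 20, a prior count of 0.5 or a log2 limit of 0.5. With no count minimum 1 did (Pitx1, on 2 counts and 0), and at the 1.2-fold limit, added after the values were seen, 1 did (Irx4), or 2 by the ratio of TPM + 1 (Irx4 and Irx2). The 5 main transcripts were the same by counts and by posterior means. Agreement between pups could not be computed with 1 of them left out. Gene pairs were compared within each pup, but no paired comparison between groups was possible because there is only 1 group of samples. Depth limits Irx6 and Pitx1, whose counts of 8 or fewer leave the size of any ratio uncertain, and Irx1, whose credibility intervals held the detection threshold.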

Other observations

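Lung epithelial genes differed between the hearts in opposite directions. The secretoglobin genes of airway cells were higher in replicate 2: Scgb3a2 had 563 TPM in replicate 2 and 2.96 TPM in replicate 1, Scgb3a1 had 227 and 1.5 TPM, and Scgb1a1 had 74.3 and 0.97 TPM. Sftpc, the surfactant gene of alveolar type 2 cells, was lower in replicate 2, with 0.34 TPM against 25.5 TPM in replicate 1. Sftpd, another surfactant gene, was higher in replicate 2, with 1.42 TPM against 0.32 TPM in replicate 1. Also higher there were Foxj1 (0.78 TPM, against 0.03 in replicate 1), Epcam (0.87 and 0.07), Cdh1 (0.4 and 0.14) and Foxa1 (0.14 and 0). Sftpa1 (0.31 and 1.13), Ager (0.65 and 1.47) and Cldn18 (0 and 0.17) were lower in replicate 2. Of the 7 detected Irx and Nr2f genes, 4 were lower in replicate 2 by scaled counts, and all log2 ratios lay between -0.33 and 0.09. Whether the lung epithelial genes bear on these ratios was not tested.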
